A study of Homo sapiens with 6 samples.

Results

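MHC class I molecules display peptides from inside the cell, and the genes described here encode their chains, the transporter and loading protein that supply the peptides, and the transactivator of the family. The 9 genes are HLA-B, HLA-C, HLA-E, HLA-F, B2M, NLRC5, TAP1, TAP2 and TAPBP. They were given by name and matched by symbol to the numeric gene identifiers of the count table. All 9 had a row among 23459 rows, and all 9 passed the filter on low counts that left 12010 genes for testing. The cells were Raji, an established human line of Burkitt's lymphoma, which the labels describe as derived from the germinal centre. Control cells carried the non-targeting hairpin SHC002 and knockdown cells the hairpin OBF1sh1 against OBF1, the B cell coactivator encoded by POU2AF1. Both groups were exposed to pLKO.1 lentivirus for 5 days and selected in 3 μg/ml puromycin for 7 days, and each group had 3 libraries of poly(A) RNA. A single hairpin was used against OBF1. Separate cultures are not stated for the replicate libraries, so the p-values rest on a spread between libraries that may be only technical.

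A class I molecule is a heavy chain bound to the invariant light chain β2-microglobulin, encoded by B2M, and to a short peptide. Peptides cut by the proteasome enter the endoplasmic reticulum through the transporter TAP, a pair of TAP1 and TAP2, and tapasin, encoded by TAPBP, bridges the transporter to the empty heavy chain. NLRC5 is a nuclear relative of the class II transactivator CIITA that binds no DNA itself and acts through a complex of RFX, CREB or ATF, and NF-Y proteins on the promoters of class I genes, B2M and TAP1. These promoters are also known for elements bound by NF-κB and by interferon regulatory factors.

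Promoter sequences are shown for the letters of such elements, with no test of any link to the levels. RefSeq windows of GRCh38.p14 were available for 7 members, and HLA-E and NLRC5 had none. Each stretch below lies upstream of the annotated start and runs 5′ to 3′ on the strand of the gene, with capitals marking every motif match within it. HLA-B is chr6:31357223-31357364 (minus strand), HLA-C chr6:31272136-31272292 (minus strand), HLA-F chr6:29723270-29723389 (plus strand), B2M chr15:44711365-44711480 (plus strand), TAP1 chr6:32853759-32853954 (minus strand), TAP2 chr6:32838762-32838805 (minus strand) and TAPBP chr6:33314079-33314142 (minus strand). These are reference letters, not the alleles of Raji, and TAP1 has a further window that was not scanned.
HLA-B: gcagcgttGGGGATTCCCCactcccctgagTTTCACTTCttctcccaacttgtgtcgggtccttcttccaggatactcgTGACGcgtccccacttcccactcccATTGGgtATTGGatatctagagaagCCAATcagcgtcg
HLA-C: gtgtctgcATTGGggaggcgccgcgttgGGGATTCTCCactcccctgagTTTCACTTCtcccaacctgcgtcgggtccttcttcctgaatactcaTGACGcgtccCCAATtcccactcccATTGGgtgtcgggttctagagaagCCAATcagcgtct
HLA-F: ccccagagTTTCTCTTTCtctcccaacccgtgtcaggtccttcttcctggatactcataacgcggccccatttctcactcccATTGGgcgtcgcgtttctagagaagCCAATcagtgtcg
B2M: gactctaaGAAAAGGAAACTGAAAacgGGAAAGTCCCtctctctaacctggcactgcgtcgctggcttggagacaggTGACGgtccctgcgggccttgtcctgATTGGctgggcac
TAP1: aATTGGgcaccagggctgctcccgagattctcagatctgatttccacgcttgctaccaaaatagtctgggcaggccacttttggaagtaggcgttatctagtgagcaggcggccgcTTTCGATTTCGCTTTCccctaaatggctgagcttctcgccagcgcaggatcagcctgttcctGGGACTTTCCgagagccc
TAP2: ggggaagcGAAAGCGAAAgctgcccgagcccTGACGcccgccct
TAPBP: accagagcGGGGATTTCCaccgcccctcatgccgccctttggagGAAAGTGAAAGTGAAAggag

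The motifs were searched on both strands of the full windows of 300 bases, from 250 before to 50 after the start. An interferon-stimulated response element, taken as GAAA followed after any 2 bases by GAAA or GAANTGAAA, matched in 7 of 7 member windows and in 5.20% of 35116 windows of all genes. The shorter form was added after the windows had been read, and it is the one in HLA-B and HLA-C; the longer form alone matched in 5 of 7 and in 3.57% of all windows. The NF-κB consensus matched in 5 of 7, the exceptions being HLA-F and TAP2, and in 5.91% of all windows. The CCAAT box, the letters bound by NF-Y, matched in 5 of 7 and in 34.6% of all windows, and the CRE core TGACG matched in 4 of 7 and in 24.6%. The octamer ATGCAAAT, to which Oct factors bind with OBF1, matched in 0 of 7 and in 1.77% of all windows. A match is a run of letters and does not show binding, and no match says only that these letters are not in these windows. Some matches overlap, as the paired response elements of TAP1, TAPBP and B2M do, and the palindromic NF-κB site of HLA-B matches on either strand.

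All 9 members were higher in OBF1 shRNA libraries, by between 1.21-fold for NLRC5 and 5.96-fold for HLA-F. For comparison, 37.5% of all tested genes were called higher and 37.9% lower (75.4% together; edgeR quasi-likelihood F test at a Benjamini-Hochberg adjusted p of 0.05). The groups did not overlap for any member, whereas 38% of tested genes were higher without overlap. Their median log2 fold change was 0.74, against -0.01 over all tested genes. In bulk RNA, a change in the level per cell and a change in the makeup of the culture cannot be told apart. The targeted POU2AF1 transcript fell from 514 ± 2.15 to 242 ± 1.66 CPM, the read count relative to the TMM-scaled library size (SD, n = 3, edgeR adjusted p = 1.25e-17).

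**Figure D1:**
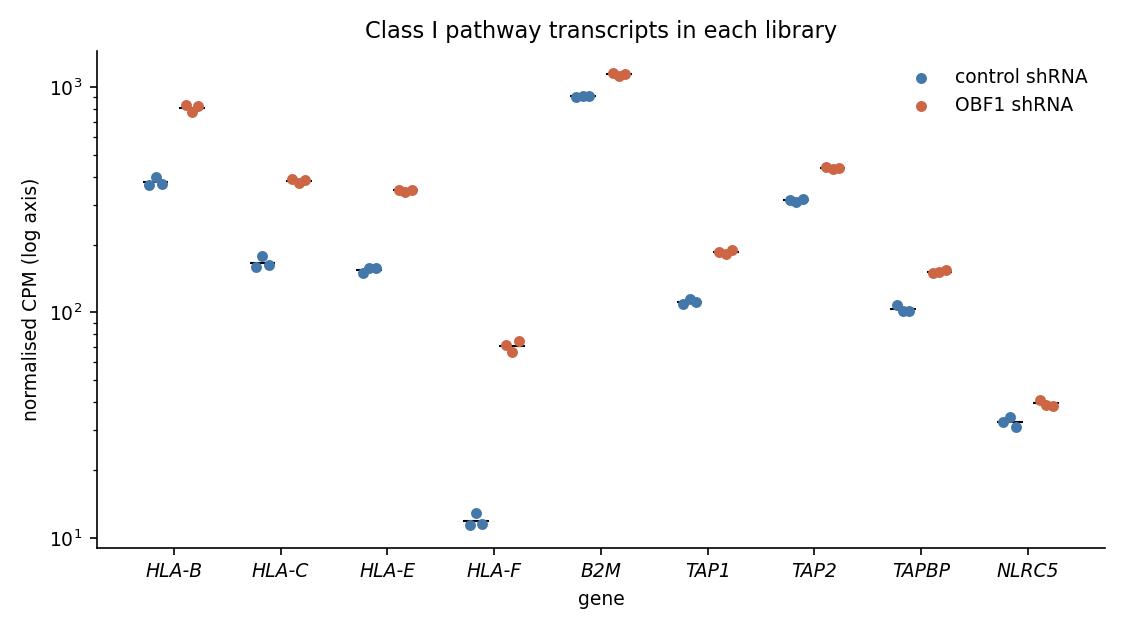
Normalised CPM on a log axis for the 9 genes, with 1 point per library (3 control shRNA, blue; 3 OBF1 shRNA, orange) and a line at each group mean. The groups do not overlap for any gene, and the gap on the log axis is widest for HLA-F, at 11.9 against 71.1 CPM.

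Among the heavy chains, HLA-B and HLA-C encode classical molecules that present peptides to CD8 T cells. HLA-B stood at 368, 398 and 370 CPM in control libraries and at 836, 773 and 823 CPM in OBF1 shRNA libraries. The lowest knockdown library was thus well above the highest control. The change was 2.14-fold (log2 fold change 1.10, SE 0.03, edgeR adjusted p = 1.56e-15). HLA-C, also a main ligand of killer cell receptors on NK cells, was at 159, 178 and 162 CPM in the controls and at 393, 376 and 387 CPM after knockdown. It rose 2.31-fold (log2 fold change 1.21, SE 0.03, edgeR adjusted p = 7.81e-16), and in both genes the second control library was the highest of its group.

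HLA-E and HLA-F are nonclassical heavy chains of low polymorphism. HLA-E, which presents leader peptides of other class I chains to NK receptors, measured 150, 157 and 158 CPM in control libraries and 350, 344 and 350 CPM in OBF1 shRNA libraries. The libraries of each group lay close together, and the change was 2.24-fold (log2 fold change 1.17, SE 0.03, edgeR adjusted p = 3.31e-17). HLA-F was the scarcest of these chains in control cells, at 11.4, 12.9 and 11.5 CPM. In OBF1 shRNA libraries it reached 71.8, 66.6 and 74.8 CPM. This was a 5.96-fold gain (log2 fold change 2.57, SE 0.06, edgeR adjusted p = 1.77e-17), and only 1.48% of tested genes had a larger log2 fold change. These 4 heavy chains were the members that rose at least 2-fold, as did 6.59% of tested genes. Class I heavy chains resemble each other in sequence, and how reads shared between them were assigned is not given in the sources used here, so the value of any single chain among these 4 is uncertain.

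B2M encodes the light chain common to all of these molecules. It measured 908, 916 and 910 CPM in control libraries and 1152, 1126 and 1139 CPM in OBF1 shRNA libraries. The 3 values of each group spanned a narrow range, and the gain was 1.25-fold (log2 fold change 0.32, SE 0.02, edgeR adjusted p = 4.67e-10). The ratio of HLA-B plus HLA-C counts to B2M counts within a library was 0.581, 0.628 and 0.585 in control and 1.07, 1.02 and 1.06 in OBF1 shRNA libraries. It was higher in 3 of 3 knockdown libraries, by 0.81 on the log2 scale (SE 0.04; two-sided exact permutation test, p = 0.1, the smallest that 3 libraries against 3 allow, and 0.1 after Benjamini-Hochberg adjustment over 3 ratios).

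Both subunits of the transporter rose, and both are needed for transport. TAP1 was at 109, 114 and 112 CPM in control libraries and at 186, 182 and 190.3 CPM in OBF1 shRNA libraries, 1.67-fold higher (log2 fold change 0.74, SE 0.03, edgeR adjusted p = 1.08e-13). TAP2 was at 315, 310.3 and 318 CPM and then at 440.1, 434 and 437 CPM, 1.39-fold higher (log2 fold change 0.47, SE 0.02, edgeR adjusted p = 3.05e-12). The increase was clear of the library spread in each. Counts of TAP1 per count of TAP2 went from 0.346, 0.369 and 0.351 in control to 0.422, 0.420 and 0.436 in OBF1 shRNA libraries. This difference of 0.26 on the log2 scale (SE 0.03) had the smallest p that the design allows (exact permutation test, p = 0.1, adjusted over 3 ratios 0.1). TAPBP, encoding the bridging chaperone tapasin, measured 108, 101 and 101 CPM in the controls and 149.5, 152 and 154 CPM after knockdown. It was 1.46-fold higher (log2 fold change 0.55, SE 0.03, edgeR adjusted p = 2.07e-11).

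NLRC5, the transactivator, had the smallest log2 fold change of the 9. Its libraries held 32.6, 34.2 and 31.2 CPM in control and 41.0, 38.9 and 38.5 CPM in OBF1 shRNA cells, and the highest control lay 4.27 CPM below the lowest knockdown library. The gain was 1.21-fold (log2 fold change 0.27, SE 0.05, edgeR adjusted p = 3.66e-05). CIITA, its class II counterpart, was at 145 ± 1.73 CPM in the controls and at 480.4 ± 3.23 CPM after knockdown (SD, n = 3), a 3.32-fold gain by edgeR (adjusted p = 4.18e-20). The ratio of NLRC5 to CIITA counts was 2.74-fold lower (log2 difference -1.46, SE 0.04), going from 0.227, 0.233 and 0.216 to 0.0849, 0.0817 and 0.0800 (exact permutation test, p = 0.1, adjusted over 3 ratios 0.1). Under glmTreat, which asks for a change beyond 1.5-fold, 5 members remained called higher, the 4 heavy chains and TAP1, while B2M, NLRC5, TAP2 and TAPBP did not pass. By that test 9.83% of all genes were higher.

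**Figure D2:**
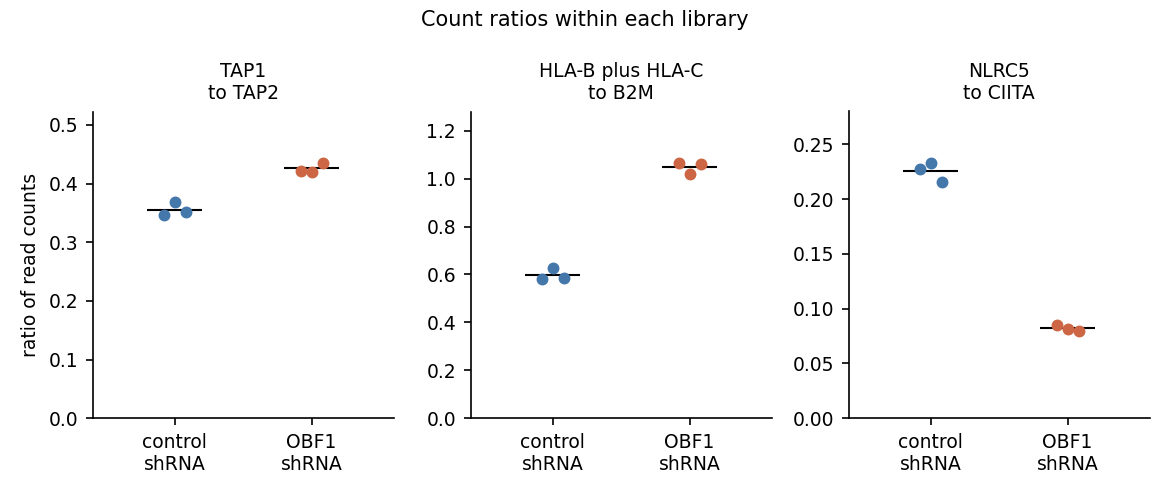
Ratios of read counts within each library for 3 gene pairs, with 1 point per library and a line at each group mean. The first 2 ratios are higher in every OBF1 shRNA library, and NLRC5 to CIITA is lower in every one, at 0.0822 against 0.226 on average.

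**Figure D3:**
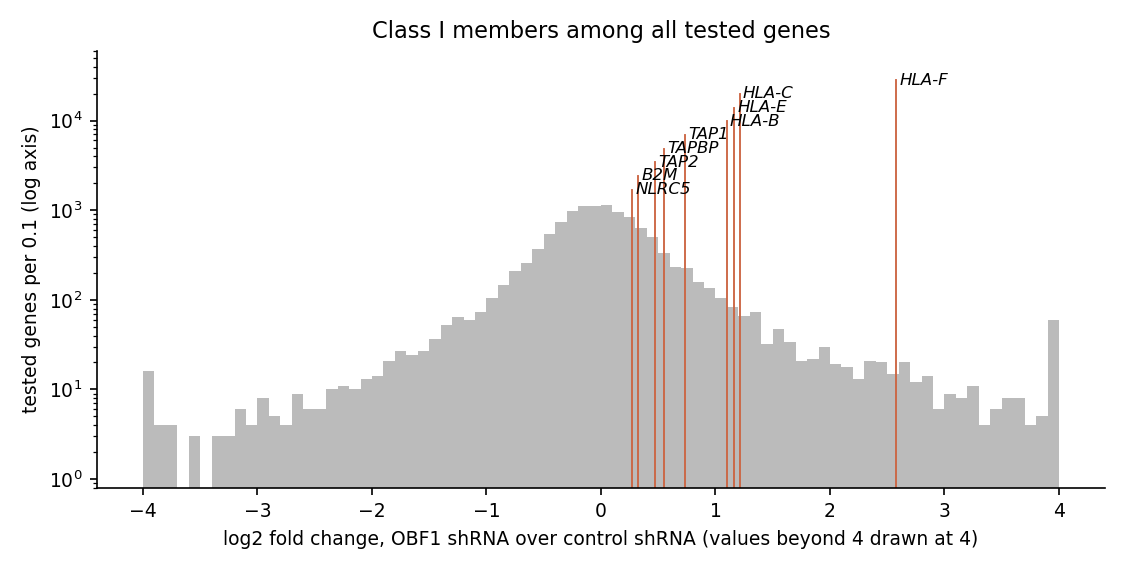
Histogram of log2 fold changes of all 12010 tested genes (log axis for the number of genes), with the 9 class I members marked by lines. All 9 lie above 0, from NLRC5 at 0.27 to HLA-F at 2.57.

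Levels were compared between genes per kilobase of annotated exon (GENCODE 29). In control libraries B2M led at 383 ± 1.80 CPM per kilobase (SD, n = 3), followed by HLA-B at 239 ± 10.3 and HLA-C at 107 ± 6.47. HLA-E was at 59.6, TAP2 at 50.9, TAP1 at 37.7 and TAPBP at 24.7 CPM per kilobase, and HLA-F and NLRC5 were lowest at 6.00 and 4.79. No 2 neighbours in that order overlapped between libraries. In OBF1 shRNA libraries HLA-B stood first at 511 ± 21.0 CPM per kilobase, above B2M at 479 ± 5.41 (SD, n = 3). HLA-F, at 35.8 ± 2.09, overlapped with TAPBP at 36.1 ± 0.504 CPM per kilobase (SD, n = 3). The order of HLA-B and B2M in the knockdown rests on the length used: in CPM without length B2M was higher in every library of both groups. How multiply matching reads were handled is not given, so levels of MHC region genes against those of B2M and NLRC5 are uncertain.

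Lists of other genes of the pathway are set beside the 37.5% of all tested genes called higher and the 37.9% called lower. All 5 tested genes of the immunoproteasome and its activator rose (median log2 fold change 0.87). PSME1 and PSME2, subunits of the interferon-inducible proteasome activator PA28, rose 1.83-fold and 1.84-fold, to 248 and 189 CPM. Of the 3 constitutive catalytic subunits that the immunoproteasome replaces, 0 rose and 2 fell, PSMB7 by 0.25 and PSMB6 by 0.15 on the log2 scale, and without control shRNA replicate 2 the third, PSMB5, was called higher. Of 8 loading and trimming genes 5 rose and 3 fell (median log2 fold change 0.14), and with library sizes alone 4 rose. BCAP31, an export receptor of the endoplasmic reticulum that class I chains bind, was 1.82-fold lower, at 183 ± 4.05 against 101 ± 2.28 CPM, and CANX, encoding the chaperone calnexin that holds newly made heavy chains, went from 1242 ± 25.9 to 922 ± 5.30 CPM (SD, n = 3), 1.35-fold lower.

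Of 8 enhanceosome genes, whose products bind the class I promoter, 3 rose, 2 fell and 3 did not pass, with a median log2 fold change of -0.01. The share that rose was that of all tested genes. RFX5, the DNA-binding RFX subunit, rose 1.94-fold from 215 ± 1.68 to 418 ± 13.1 CPM, and RFXANK, its ankyrin partner, rose 1.41-fold from 44.5 ± 2.00 to 62.8 ± 1.24 CPM (SD, n = 3). With upper-quartile factors or library sizes alone 4 enhanceosome genes fell, RFXAP and NFYB as well (2 genes picked once their values were known). Of 13 activators that answer to signals, 10 rose and 2 fell (median log2 fold change 0.46). NFKB2 and NFKB1, precursors of the p52 and p50 subunits of NF-κB, rose 2.58-fold and 2.05-fold, to 274 and 181 CPM. IRF1, an interferon regulatory factor named after its values were seen, lay at the threshold (log2 fold change 0.09, SE 0.04, edgeR adjusted p = 0.0434). It lost its call under DESeq2, upper-quartile factors, library sizes alone, the replicate block and without control shRNA replicate 1 or 3 or OBF1 shRNA replicate 1 or 2.

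Of 5 PRC2 genes, encoding the complex that places the repressive mark on histone H3, 2 rose and 1 fell. Among all tested genes 37.5% were called higher and 37.9% lower, and 5 genes are too few to tell either share from these. With library sizes alone 2 PRC2 genes fell, RBBP7 as well, a gene picked after its values were seen. EZH2, the methyltransferase of PRC2, was 1.35-fold lower, at 220.4 against 163 CPM. EED, the reader subunit of PRC2, was 1.32-fold higher, at 56.2 against 73.9 CPM. Of 5 genes known to act on class I at the cell surface, which do not all act in one direction, 3 fell and 1 rose, and with library sizes alone 4 fell and 0 rose. The gene called higher, MARCHF9, a ubiquitin ligase named after its values were seen, was at 26.7 against 29.1 CPM and also lost its call with DESeq2, upper-quartile factors and the replicate block. SUSD6, a membrane adaptor for class I degradation, was 1.30-fold lower, at 72.9 against 56.1 CPM, and SPPL3, a membrane protease known to keep class I accessible by limiting glycolipids that shield it, was 1.10-fold lower. The remaining class I and class I-like chains were scarce: 6 of the 22 reported passed the low-count filter, of which 1 rose and 4 fell (median log2 fold change -0.46). The class I pseudogene HLA-L rose 3.20-fold, from 4.63 to 14.8 CPM. How reads shared between it and the heavy chains were assigned is not given, so its value is uncertain too. MICB, a stress-induced ligand of the NK receptor NKG2D, was 1.46-fold lower, at 17.6 against 12.1 CPM (log2 fold change -0.55, SE 0.07, edgeR adjusted p = 1.04e-06). AZGP1, one of the 4, passed the filter only through the control libraries, at 0.713 against 0.296 CPM, so it was tested only through its higher group. It kept its call with no low-count filter.

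Against 1.5-fold, edgeR's glmTreat called 1180 of all 12010 tested genes higher (9.83%) and 787 lower. It also called fewer of the listed genes than the main test. It called 4 of 13 activators, 3 of 5 immunoproteasome genes, 1 enhanceosome gene and 1 of the remaining class I chains higher, and 1 loading gene in each direction. It called 0 genes of the constitutive proteasome, PRC2 and surface lists, which are too short to tell 0 from the shares over all tested genes. CANX, PSMB6, PSMB7, RFXANK, EZH2, EED, SUSD6, SPPL3 and MICB lost their calls there, while BCAP31, PSME1, PSME2, RFX5, NFKB1, NFKB2 and HLA-L kept theirs.

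**Figure D4:**
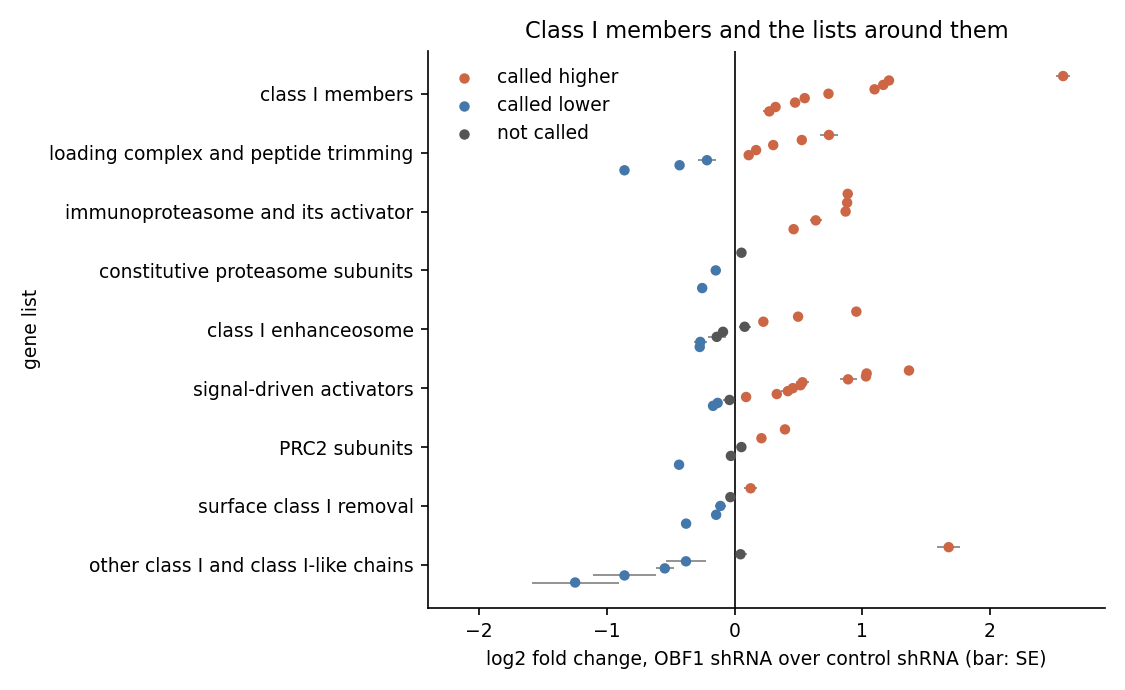
Log2 fold changes (points, with SE as bars) of the 9 class I members and of 8 surrounding gene lists, coloured by the edgeR call. The members and the immunoproteasome list lie wholly above 0, while the other lists fall on both sides or, for constitutive subunits, near 0.

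Of the 9 members 7 lie in the MHC region of chromosome 6, while B2M is on chromosome 15 and NLRC5 on chromosome 16. Between HLA-F and TAPBP in the RefSeq order, 80 other protein-coding genes outside class II and the lists above were tested. Of these, 32 rose and 25 fell, with a median log2 fold change of 0.02, beside 37.5% higher and 37.9% lower among all tested genes. With library sizes alone 25 of the 80 rose and 34 fell. Some were scarce in 1 group, as MUCL3 at 0.217 against 4.11 CPM and C4A at 0.596 against 0.145 CPM, both picked after their values were seen. A filter of 1 CPM in 3 libraries left 76 of the 80, of which 31 rose and 23 fell. The 15 class II genes tested there had log2 fold changes from 0.98 to 3.14, the latter that of HLA-DQB2, which at 0.0503 against 0.490 CPM passed the filter only through the knockdown libraries. TAP1 and PSMB9, an immunoproteasome subunit, are neighbours transcribed away from each other. PSMB9, named after its values were seen, rose 1.85-fold, from 61.5 ± 1.15 to 114 ± 6.11 CPM (SD, n = 3).

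**Figure D5:**
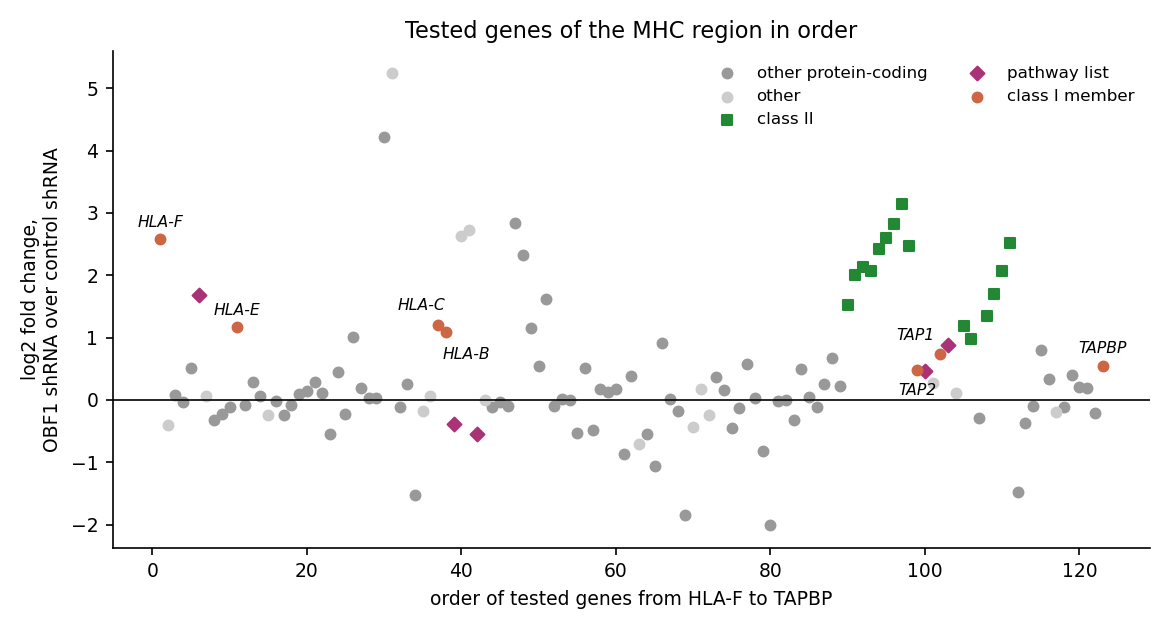
Log2 fold changes of tested genes from HLA-F to TAPBP, by its order on chromosome 6, with class I members, class II genes and genes of the surrounding lists marked. Class I members and class II genes lie above 0, and the 80 other protein-coding genes scatter on both sides with a median of 0.02.

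The profile nearest to that of NLRC5 over the 6 libraries was sought among 9606 other genes averaging 5 CPM or more, by Euclidean distance between log2 CPM values centred on each gene's mean. The nearest were TREX1, a cytosolic DNA exonuclease, at a distance of 0.0448, then MRPL27, a mitochondrial ribosomal protein gene, at 0.0468, and TMEM129, a ubiquitin ligase gene, at 0.0494. They rose 1.18-fold, 1.22-fold and 1.21-fold, and 1326 genes lay within 0.2.

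Markers set beside these results were those of B cells and of other cells. The 8 B cell markers summed to between 2522 and 2591 CPM in control libraries and to between 4215 and 4267 CPM after knockdown. Of these 7 rose and 1 fell, beside 37.5% higher and 37.9% lower among all tested genes. MS4A1 had the largest change in CPM, from 702 to 2078 on average, and made up much of the rise in the sum. CD79A rose 1.10-fold and CD79B was the 1 that fell, all 3 named after their values were seen. The 8 myeloid markers summed to at most 2.20 CPM in any library, with 3 at 0 throughout. Of the 3 tested, ITGAM was called higher, at 0.660 against 1.30 CPM, LYZ lower, at 0.605 against 0.157 CPM, and CSF1R was not called. LYZ passed the filter only through the control libraries. The 7 markers of 293T, the line that packaged the virus, summed to at most 0.0352 CPM, with 5 at 0. For the 9 T and NK cell markers the control sums lay between 0.224 and 0.381 CPM and the knockdown sums between 1.16 and 1.34 CPM. NKG7, the only one of these tested, averaged 0.144 CPM in control and 0.789 CPM in knockdown libraries. It passed the filter only through the knockdown libraries. Among those not tested, control and knockdown means were 0.146 and 0.254 CPM for CD247 and 0 and 0.132 CPM for PRF1. They were 0.0107 and 0.0535 CPM for CD3E, 0 and 0.0325 CPM for CD3G, and 0.0107 and 0 CPM for KLRD1. CD3D, CD2 and GNLY were at 0 throughout.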

How the data were processed

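Raji cells with a control or an OBF1 hairpin were profiled by RNA sequencing, with 3 libraries per group; groups and replicate numbers come from the sample titles. The authors deposited raw, unnormalised counts per gene and a gene length for each row. Builds hg19 and mm9 appear in the submitters' processing notes; for the aligner, counter, annotation, strand setting and handling of multiply matching reads, the choice is not given in the sources used here. Symbols came from a RefSeq table of GRCh38.p14, which matched 23308 of 23459 rows. Libraries held 29569281 to 32612429 counts, and 0 columns were left out.

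Genes kept by filterByExpr (min.count 10, min.total.count 15) were fitted in R 4.3.3 with edgeR 4.0.16 (TMM, quasi-likelihood F test, no covariate) and adjusted by Benjamini-Hochberg at 0.05. Each SE was obtained as the absolute log2 fold change over √F. The fit was tested on simulated data in which few genes changed. In the real data 75.4% of tested genes were called, and the fit was not tested under such wide change. Alternatives were DESeq2 1.42.0, limma-voom (limma 3.58.1), other scalings and filters, glmTreat against 1.5-fold, a replicate block, and fits without each library in turn. For genes of the MHC region the deposited lengths exceed the annotated exons several times, so levels per kilobase use GENCODE 29 exons.

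The members and lists were chosen with earlier results of these data known. Named genes are the 9 members, POU2AF1, CIITA, the 2 smallest p-values of each of 8 pathway lists and the 3 genes nearest to NLRC5. One listed gene and a planned sum over heavy chains are not reported here. Replicates differed by more than counting error (chi-square per degree of freedom 1.89 to 3.28).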

Additional observations from a re-analysis of the deposited data

How the results depend on the processing

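All 9 members were called higher under every scaling, filter, test and left-out library that was run, except that the glmTreat test against 1.5-fold called 5 of them and 1967 genes in all. That test asks for a larger change by construction. With library sizes alone, log2 fold changes moved by a median of -0.11, which brought B2M to 0.21 and NLRC5 to 0.16 (edgeR adjusted p = 3.95e-08 and 0.00371). All genes then gave 3476 higher and 5778 lower calls, against 4508 and 4550. With 1 library left out, the log2 fold change of NLRC5 ranged from 0.25 to 0.31 and that of HLA-F from 2.54 to 2.64. Of the listed genes, MARCHF9 also lost its call without control shRNA replicate 1 or 3 or OBF1 shRNA replicate 3, TMEM127 with DESeq2 or without control shRNA replicate 2 or 3 or OBF1 shRNA replicate 1, ERAP2 without OBF1 shRNA replicate 3, and MICA with DESeq2, the replicate block, or without control shRNA replicate 2 or 3 or OBF1 shRNA replicate 3. The HLA-B level over the B2M level, 0.623 in control and 1.07 in OBF1 shRNA libraries per kilobase of exon, became 0.416 and 0.712 in CPM. Per kilobase of the deposited length, a scale added after seeing the data, it was 0.0431 and 0.0738. With the replicate block 8759 genes and all 9 members were called. Correlations of deviations between same-numbered libraries were 0.00979, -0.119 and -0.0639. The labels do not say that the numbers pair the libraries, and with 3 libraries per group these correlations cannot exclude a pairing. For the 3 ratios the mean paired differences equal the unpaired ones by arithmetic, whatever the pairing (0.26, 0.81 and -1.46, exact sign-flip p = 0.25, the smallest for 3 pairs).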

Other observations

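The deposited gene length of the members in the MHC region was between 5.54 times (TAPBP) and 15.6 times (HLA-F) the annotated exon length, whereas it was 1.16 times for NLRC5 and 0.679 times for B2M, which lie on other chromosomes. The 76 neighbouring protein-coding genes with a length in both sources had a median ratio of 6.98, and 11248 tested genes outside the region had a median of 1. A level per kilobase made from the deposited lengths therefore places HLA-B at 0.0431 of B2M in control libraries, while exon lengths place it at 0.623. Fold changes between groups do not use the length.

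Among other protein-coding genes of the MHC region, picked after their values were seen, the neighbouring cytokine genes LTA, encoding lymphotoxin alpha, and TNF rose by 2.84 and 2.32 on the log2 scale. LTA went from 17.6 to 127 CPM and TNF from 5.53 to 27.6 CPM (edgeR adjusted p = 5.82e-20 and 1.14e-15). Of the 80 such genes 32 rose and 25 fell. HSPA1B, picked in the same way, fell from 238 to 66.6 CPM (log2 fold change -1.84, edgeR adjusted p = 1.32e-17).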
